A study of Homo sapiens with 6 samples.

Results

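Glutathione and thioredoxin are the main thiol systems with which a cell reduces peroxides and oxidised proteins. The genes described here are 10 of these systems' genes, namely GCLC, GCLM, GSS, GSR, CHAC1, GPX2, GPX4, TXN, TXNRD1 and SRXN1. They were found by symbol among the 24462 distinct gene symbols of the count tables, where each of the 10 stood on 1 entry. H460, an established line of human large-cell lung carcinoma, carries a mutated KEAP1 gene. The depleted group (3 libraries) was H460 cells kept for 24 h in RPMI 1640 without glutamine and with dialyzed serum, and the replete group (3 libraries) was H460 cells with glutamine. The labels do not give the serum of the replete cells over those hours, so lack of glutamine and a change of serum cannot be told apart. Nor do they say that the libraries of 1 group are of different cultures. The p-values then measure only the spread between these libraries, and that spread may be technical. RNA was read by 3′-end sequencing (QuantSeq), which samples each transcript close to its poly(A) tail.

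Glutathione is built from glutamate, cysteine and glycine. Glutamate-cysteine ligase, a pair of the catalytic subunit GCLC and the modifier subunit GCLM, makes the first bond, and glutathione synthetase GSS adds glycine. Glutamine is a main source of the cell's glutamate, and glutamate also pays for cystine import through the antiporter SLC7A11. Glutathione peroxidases spend glutathione on peroxides, glutathione reductase GSR restores it with NADPH, and CHAC1 breaks it down inside the cell. In the parallel system, thioredoxin TXN reduces protein disulfides and peroxiredoxins, thioredoxin reductase TXNRD1 restores TXN with NADPH, and sulfiredoxin SRXN1 repairs peroxiredoxins that have been overoxidised. Many of these genes are known targets of NRF2, a transcription factor that KEAP1 restrains and that binds antioxidant response elements. CHAC1 is known as a target of ATF4, the transcription factor of the amino acid response.

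Both kinds of element could be looked for in promoter sequence, and 4 promoter stretches that hold a match are shown. The windows run from 250 bases before to 50 bases after a gene's start in RefSeq on GRCh38.p14, a build other than the hg19 of the counted data. They held 8 of the 10 genes in 11 windows. The antioxidant response element core was searched as TGACNNNGC and the ATF4 composite element core as TGATGNAA, on both strands. The antioxidant core was found in the windows of 3 genes, GCLM, TXNRD1 (at each of its 2 start sites) and GPX2, and in 13.3% of all 35116 windows. A gene can have more than 1 window, so a count of genes and a share of windows are unlike units. The ATF4 core was found in 1 gene, CHAC1, and in 3.62% of all windows, and no window of these 8 genes held both cores. A match is a run of letters and not a shown binding site. In the stretches below, written 5′ to 3′ on the strand of the gene, capitals mark the matched letters, which in all 4 lie as the reverse complement of the core. The GCLM stretch is chr1:93909406-93909514 on the minus strand with the match 34 to 26 bases before the start. The TXNRD1 stretch is chr12:104286880-104286988 on the plus strand, before the second of 2 start sites, with the match 102 to 94 bases before it. The window of the first TXNRD1 start site, not shown, held 2 matches to the antioxidant core, on opposite strands. The GPX2 stretch is chr14:64942809-64942917 on the minus strand with the match 122 to 114 bases before the start, and the CHAC1 stretch is chr15:40953221-40953319 on the plus strand with the match 209 to 202 bases before it.
GCLM: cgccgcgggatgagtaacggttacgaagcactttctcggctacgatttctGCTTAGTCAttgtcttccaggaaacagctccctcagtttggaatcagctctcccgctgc
TXNRD1: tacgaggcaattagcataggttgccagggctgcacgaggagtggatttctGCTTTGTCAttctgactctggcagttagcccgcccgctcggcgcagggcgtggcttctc
GPX2: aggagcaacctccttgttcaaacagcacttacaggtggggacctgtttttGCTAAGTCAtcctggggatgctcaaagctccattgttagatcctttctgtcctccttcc
CHAC1: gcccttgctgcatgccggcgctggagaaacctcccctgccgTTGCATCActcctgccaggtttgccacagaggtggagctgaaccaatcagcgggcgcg

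The libraries held between 7550849 and 10914899 counts. Levels are given as CPM, the counts scaled to a library total of 1000000. A count of 0 allows up to 3 counts, which stood for 0.275 to 0.397 CPM and cover counting error only. Depleted replicate 2 stood apart from its group, with a chi-square per gene of 18.0 and 10.9 against the other depleted libraries, where no other pair within a group exceeded 3.71. Of the epithelial markers, KRT8, KRT18 and KRT19 were present in every library, while EPCAM did not exceed 0.505 CPM and CDH1 had 1 count in all. The 5 epithelial markers summed to 761 to 881 CPM in depleted and 2067 to 2092 CPM in replete libraries. The 5 fibroblast markers summed to 32.8 to 109 and 25.7 to 39.6 CPM, highest in depleted replicate 3. All 5 blood markers together stayed at or under 1.26 CPM and the 4 endothelial markers at or under 0.665 CPM, with VWF and CDH5 at 0. The part of these markers in the results was not tested.

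Across the 10 genes, losses were more frequent than gains, and the members of 1 reaction did not move alike. GCLC, GCLM, GSR, TXN and SRXN1 fell, GPX4 rose, GSS, CHAC1 and TXNRD1 did not pass the test, and GPX2 had too few counts to be tested. Log2 fold changes are depleted over replete, scaled by edgeR's trimmed-mean factors, and a gene is called at a Benjamini-Hochberg adjusted p under 0.05 over all 12739 genes tested. CPM are scaled by library totals, so a fold change is not the ratio of the CPM given beside it. Scaling by library totals alone shifted the log2 fold changes of all genes by a median of −0.23. Of the 9 genes tested, 6 were called, 5 lower and 1 higher. In the same edgeR fit, 78.6% of all genes tested were called, 39.4% lower and 39.1% higher, so a call in itself is common in these data. The median log2 fold change was −0.60 over the 9 genes and −0.02 over all genes tested. For 7 of the 9 the CPM ranges of the groups did not overlap, as for 81.0% of all genes tested.

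**Figure D1:**
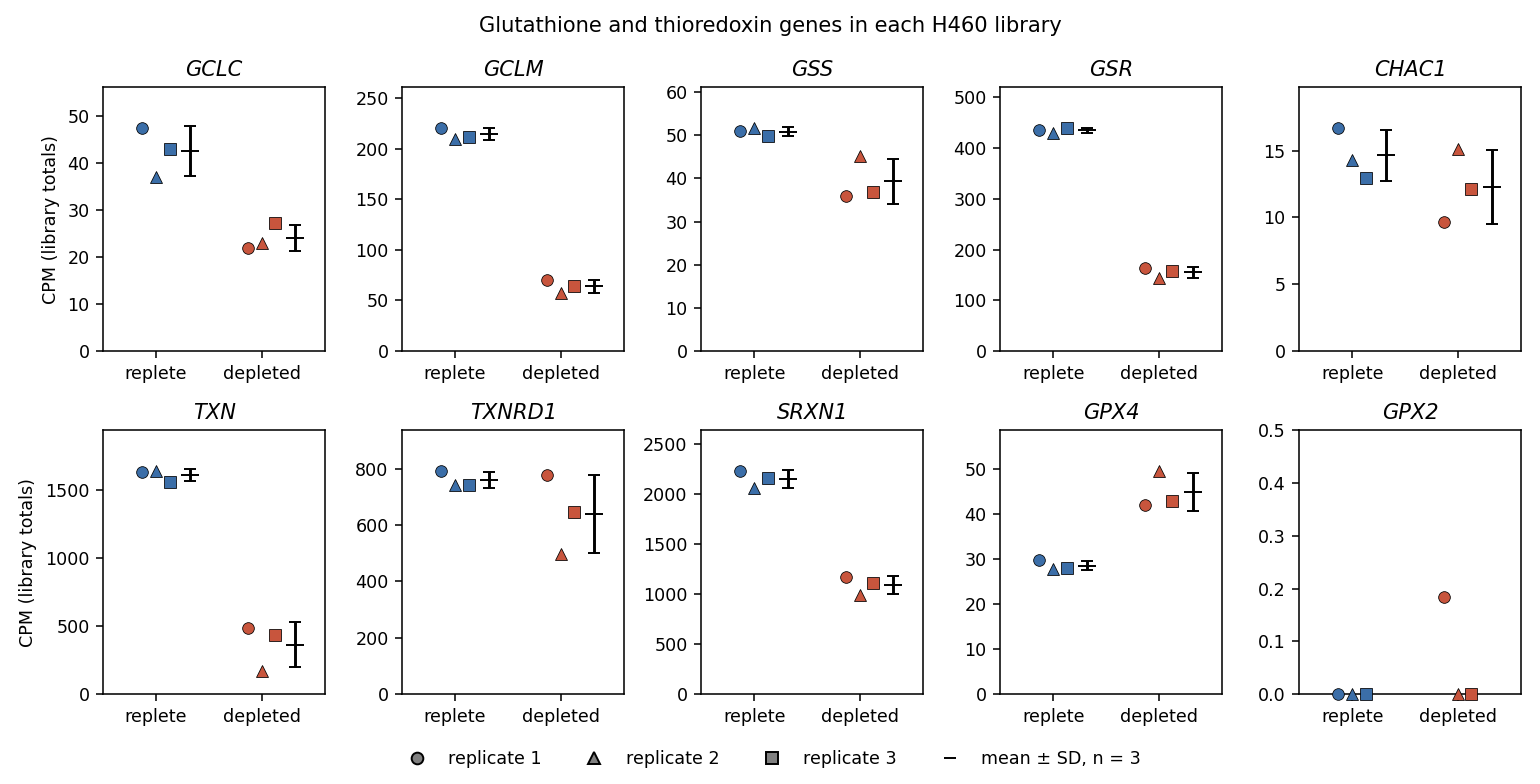
Level of each of the 10 genes in CPM (vertical axes, linear, from 0) in the 3 replete (blue) and 3 depleted (red) libraries, with symbols for the replicate number and black bars for mean ± SD, n = 3. GCLM, GSR, TXN and SRXN1 sit well below their replete levels in every depleted library, GPX4 sits above, TXN is lowest in depleted replicate 2 at 172 CPM, and GPX2, drawn without a mean, has 2 counts in 1 library.

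Among the genes of glutathione synthesis, the modifier subunit GCLM showed the largest fall. GCLM stood at 221, 210 and 212 CPM in replete replicates 1, 2 and 3 and at 69.9, 57.5 and 64.7 CPM in depleted replicates 1, 2 and 3. Every depleted library lay far below every replete library. With trimmed-mean scaling GCLM was 2.85-fold lower (log2 value −1.51, SE 0.08, n = 3 per group, adjusted p = 2.75e-09 in edgeR), and 28.2% of all genes tested moved by more in either direction.

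The catalytic subunit GCLC fell less. It stood at 47.6, 37.0 and 43.0 CPM in the replete libraries and at 21.99, 23.0 and 27.2 CPM in the depleted ones. The groups did not overlap, with a gap between them that was about as wide as the spread within the replete libraries. The fall of GCLC was 1.51-fold (log2 value −0.60, SE 0.12, adjusted p = 0.000559 in edgeR). Against a null of 1.5-fold in place of no change, it was not called (glmTreat adjusted p = 0.341).

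GSS, the last enzyme of the synthesis, stood at 51.0, 51.8 and 49.8 CPM in replete libraries and at 35.9, 45.2 and 36.8 CPM in depleted ones. All depleted values lay below all replete values, with depleted replicate 2 nearest to them. With trimmed-mean scaling the log2 fold change was −0.15 with a 95% interval of −0.38 to 0.09 and GSS was not called (edgeR adjusted p = 0.229). It was called lower with library totals alone (−0.37, adjusted p = 0.00536), with upper quartile factors (−0.35, adjusted p = 0.0106) and without depleted replicate 2 (−0.26, adjusted p = 0.00662). Library totals alone moved the median of all genes by −0.23 on the log2 scale against trimmed-mean factors.

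The unequal change of both ligase subunits does not depend on scaling, because it can be read as a ratio within each library. The ratio of GCLC to GCLM counts was 0.216, 0.177 and 0.204 in replete and 0.315, 0.401 and 0.421 in depleted libraries. Every depleted ratio was above every replete one, so the share of GCLC transcripts relative to GCLM was higher without glutamine. The difference was 0.93 on the log2 scale (1.90-fold), with an exact two-sided permutation p of 0.1, the smallest that 3 against 3 libraries can give. The ratio of GSS to GCLC overlapped between the groups (log2 difference 0.44, exact permutation p = 0.2). Adjusted over the 7 gene pairs compared, these p-values were 0.14 and 0.233, so no pair could pass 0.05.

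GSR, which returns oxidised glutathione to its reduced form, fell about as far as GCLM. It stood at 435, 429 and 440.5 CPM in the replete libraries, which were nearly equal, and at 164, 144 and 157 CPM in the depleted ones. GSR was 2.40-fold lower (log2 value −1.26, SE 0.07, adjusted p = 2.53e-09 in edgeR). The groups were far apart in relation to the spread within either.

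CHAC1, the glutathione-degrading enzyme, showed no detectable difference. Its levels were 16.7, 14.3 and 12.98 CPM in replete and 9.62, 15.1 and 12.1 CPM in depleted libraries. The groups overlapped, with both the lowest library and the second highest in the depleted group. CHAC1 was not called (log2 value −0.04, adjusted p = 0.844 in edgeR). The 95% interval of −0.43 to 0.34 gives the size of change that 98 to 151 counts per library could not resolve. Its sign turned without depleted replicate 1 (0.13) and without replete replicate 1 (0.04), with no call in either case. The ratio of CHAC1 to GCLC was higher in all depleted libraries, at 0.439, 0.658 and 0.446 against 0.352, 0.387 and 0.303 (log2 difference 0.55, exact permutation p = 0.1, adjusted p = 0.14). Without depleted replicate 2 the log2 difference was 0.36, with an exact permutation p of 0.2 and no overlap. CHAC2, a relative of CHAC1 with slower activity on glutathione, rose by 0.74 on the log2 scale, from a mean of 7.92 CPM to 11.3 ± 1.48 CPM (SD, adjusted p = 0.00113 in edgeR).

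**Figure D2:**
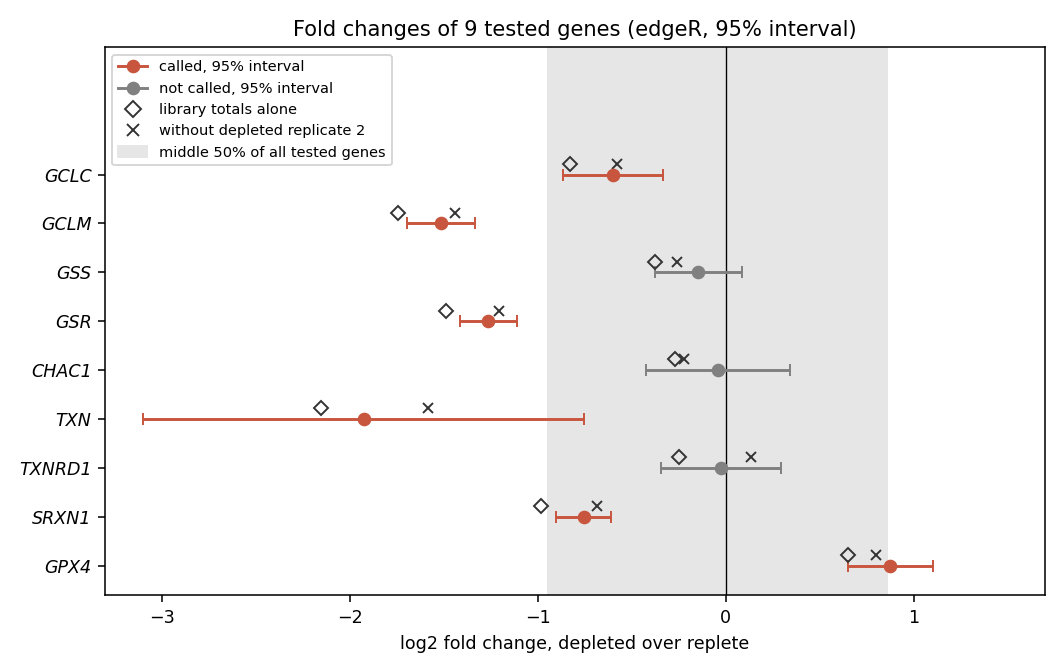
Log2 fold change of the 9 tested genes (horizontal axis, depleted over replete) with the 95% interval from edgeR, red where called and grey where not, with diamonds for library totals alone, crosses for the fit without depleted replicate 2 and a grey band for the middle 50% of all genes tested. TXN has the widest interval, from −3.10 to −0.75, GPX4 alone of the 9 lies clearly above 0, and in the settings drawn GSS and CHAC1 lie below 0 while TXNRD1 changes side.

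The 3 thioredoxin system genes differed widely from each other. TXN, the cytosolic thioredoxin, stood at 1634, 1647 and 1563 CPM in the replete libraries and at 486, 172 and 432 CPM in depleted replicates 1, 2 and 3. Replete libraries were close together, and all depleted libraries lay far below them, with depleted replicate 2 lowest by a wide margin. TXN was 3.80-fold lower (log2 value −1.93, SE 0.43, adjusted p = 0.0137 in edgeR), with a wide 95% interval of −3.10 to −0.75. Without depleted replicate 2 it was −1.58 (edgeR adjusted p = 1.98e-25). Without any other single library the edgeR adjusted p was 0.0256 to 0.0425. With the replicate number as a block, TXN was not called (−2.04, edgeR adjusted p = 0.0512). TXN in depleted replicate 2 was 2.66-fold below the mean of the other depleted libraries, and only 67 of 8507 genes with a mean of at least 10 CPM (0.788%) deviated by more in that library. GENCODE 29 names 7 pseudogenes of TXN, none of them counted here, so TXN counts are uncertain where reads match such a copy.

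TXNRD1, the reductase that recharges TXN, did not follow it. TXNRD1 stood at 794, 743 and 743 CPM in replete and at 777, 497 and 646 CPM in depleted libraries. Depleted replicate 1 lay within the replete range, and depleted replicate 2 was again the lowest. TXNRD1 was not called (log2 value −0.02, 95% interval −0.34 to 0.30, adjusted p = 0.893 in edgeR), and the value was 0.13 without depleted replicate 2 (adjusted p = 0.0561).

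Within each library, TXN therefore lost ground to TXNRD1. The ratio of TXN to TXNRD1 counts was 2.06, 2.21 and 2.10 in replete and 0.626, 0.347 and 0.669 in depleted libraries. No depleted library came near a replete one. The ratio was 4.04-fold lower in depleted cells (log2 difference −2.02, exact permutation p = 0.1, adjusted p = 0.14), and the log2 difference was −1.72 without depleted replicate 2. Both reductases, GSR and TXNRD1, also changed unequally. GSR to TXNRD1 was 0.547, 0.577 and 0.593 in replete and 0.211, 0.289 and 0.243 in depleted libraries, a ratio 2.33-fold lower with no overlap (log2 difference −1.22, exact permutation p = 0.1, adjusted p = 0.14).

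SRXN1, the sulfiredoxin, fell moderately. It stood at 2234, 2059 and 2154 CPM in replete and at 1171, 988 and 1110 CPM in depleted libraries. The groups did not overlap and each was narrow. SRXN1 was 1.69-fold lower (log2 value −0.75, SE 0.07, adjusted p = 2.96e-07 in edgeR), and 56.5% of all genes tested moved by more.

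Its substrate PRDX1, the abundant cytosolic peroxiredoxin, fell far more. PRDX1 stood at 6865, 6667 and 6929 CPM in replete and at 394, 492 and 429 CPM in depleted libraries. Its log2 fold change with trimmed-mean scaling was −3.73 (SE 0.08, adjusted p = 1.16e-12 in edgeR). No depleted library came near the replete level. The ratio of SRXN1 to PRDX1 counts was 0.325, 0.309 and 0.311 in replete and 2.97, 2.01 and 2.59 in depleted libraries. This ratio was 7.91-fold higher in depleted cells, the largest shift of the 7 pairs (log2 difference 2.98, exact permutation p = 0.1, adjusted p = 0.14).

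**Figure D3:**
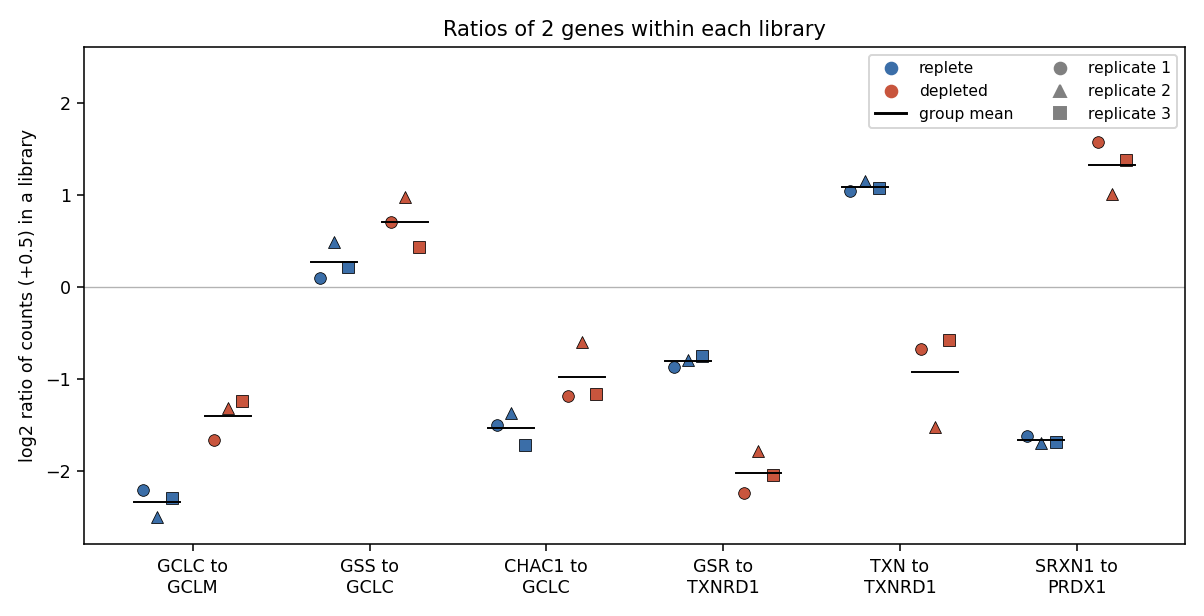
Log2 ratio of the counts of 2 genes in the same library (vertical axis) for 6 of the 7 pairs, with replete libraries in blue, depleted libraries in red, symbols for the replicate number and black lines for group means. The groups do not overlap except for GSS to GCLC, with TXN to TXNRD1 shifted by −2.02 and SRXN1 to PRDX1 by 2.98.

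GPX4, the glutathione peroxidase that reduces lipid peroxides in membranes, was the only one of the 9 tested genes that rose. It stood at 29.7, 27.8 and 28.1 CPM in replete and at 42.1, 49.6 and 42.8 CPM in depleted libraries. Each depleted library was above each replete one, with depleted replicate 2 the highest. GPX4 was 1.84-fold higher (log2 value 0.88, SE 0.10, adjusted p = 4.36e-06 in edgeR), and the log2 value was 0.65 with library totals alone.

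GPX2, known from the lining of the gut and as an NRF2 target, was at the limit of detection. It had 2 counts in depleted replicate 1, which is 0.183 CPM, and 0 counts in the other 5 libraries. All 6 values lie under the limit of 3 counts, so no fold change is given and the ratio of GPX4 to GPX2 is void. That pair still counts among the 7 over which the ratio p-values were adjusted. The other glutathione peroxidases that could be tested all fell. GPX8, a peroxidase of the endoplasmic reticulum, fell from 76.4 to 14.0 ± 1.56 CPM (log2 fold change −2.22). GPX1, the widely expressed cytosolic form, fell by 0.22 (edgeR adjusted p = 0.0464). GPX1 was not called with DESeq2 size factors (adjusted p = 0.0667), in DESeq2 (0.128) or, of the single libraries, without depleted replicate 1 (0.157) or 3 (0.141) or without replete replicate 1 (0.0996), 2 (0.0552) or 3 (0.0867). GPX3, the secreted form, fell by 1.21.

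Beside the promoter stretches above, the counts of the genes with the same core read as follows. The 3 genes with an antioxidant core gave 3 different results: GCLM fell, TXNRD1 was not called and GPX2 had almost no counts. Of the 5 other genes searched, none held this core in its windows: SRXN1, TXN and GCLC fell, GPX4 rose, and CHAC1, which held the ATF4 core, was not called. Elements outside these 300-base windows were not searched.

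Around the 10 genes, 117 other genes of 12 related lists were tested, of which 67 fell and 29 rose. The median log2 fold change of the 117 was −0.48, against −0.02 for all genes tested. Over all genes tested, 39.4% were called lower and 39.1% higher, and a list whose shares lie near these says nothing particular about its genes. These shares depend on the scaling. With library totals alone, 5924 of the 12739 genes tested were called lower and 4132 higher, and of the 117 other genes 78 and 26. Upper quartile factors gave 5866 lower and 4188 higher over all genes. The lists were drawn up with earlier results of these data known, so their counts are a description. Of 7 other tested genes of glutathione synthesis, recycling and breakdown, 3 rose and 3 fell. GGCT fell from 313 to 105 ± 7.31 CPM (log2 fold change −1.36), and CNDP2, a dipeptidase that can release cysteine from cysteinylglycine, rose by 0.51.

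Of 15 other thioredoxins, thioredoxin-like proteins and reductases tested, 4 rose and 7 fell (median log2 fold change −0.27). The shares over all genes tested were 39.1% called higher and 39.4% lower, so these few counts are a description only. The mitochondrial thioredoxin TXN2 and its reductase TXNRD2 rose, by 0.58 and 1.68 (edgeR adjusted p = 0.000213 and 1.09e-06). TXNRD3, the reductase known from testis, fell by 2.10 but at low levels, from 6.43 to 1.29 ± 0.305 CPM. The membrane-bound TMX4 fell from 375 to 54.3 ± 3.04 CPM (log2 fold change −2.56), and the cytosolic TXNL1 rose from 38.7 to 78.1 ± 3.80 CPM (1.24). TXNIP, which binds and inhibits thioredoxin, stood at 39.9, 42.9 and 39.6 CPM in replete and at 864, 691 and 902 CPM in depleted libraries. TXNIP rose in every depleted library (log2 value 4.55, adjusted p = 1.27e-12 in edgeR), while TXN fell in the same libraries.

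Peroxiredoxins and glutaredoxins mostly fell, in lists of few genes, where 39.4% of all genes tested were called lower and 39.1% higher. None of 6 peroxiredoxins tested rose and 4 fell. Besides PRDX1, the mitochondrial PRDX3 fell by 1.13 and PRDX6, which uses glutathione, fell by 0.48, whereas PRDX5 was not called (−0.02, edgeR adjusted p = 0.841) but was called lower with library totals alone (−0.25, adjusted p = 0.0265). Of 4 glutaredoxins, small glutathione-dependent oxidoreductases, 3 fell and 1 rose. GLRX, the cytosolic form, fell from 220 to 35.6 ± 5.71 CPM (log2 fold change −2.40), GLRX5, which serves iron-sulfur cluster assembly in mitochondria, fell by 1.69, and GLRX2 rose by 0.78.

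Of 23 glutathione transferases, exporters of conjugates and related enzymes tested, 18 fell and 1 rose (median log2 fold change −0.82). GSTO1, the omega-class transferase, fell from 366 to 59.2 ± 5.89 CPM (−2.40), and MGST2, a membrane-bound transferase, fell by 1.99. GSTZ1, which acts in tyrosine breakdown, was the one that rose (0.95). GSTP1, the pi-class enzyme, stood at 1354 CPM with glutamine and 1108 ± 185 CPM without it and was not called (−0.06, edgeR adjusted p = 0.606). It was called lower with library totals alone (−0.29, adjusted p = 0.0228) and without depleted replicate 2 (−0.20, adjusted p = 0.000212).

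Genes in the lists of cystine and cysteine supply and of NADPH production were mostly called lower. Of 9 genes of cystine and cysteine supply tested, 6 fell and 2 rose. The 6 include MAT2A, AHCY, MTR and CSAD, so this list is wider than the import and synthesis of cysteine. The transporter heavy chain SLC3A2 rose by 2.51 and SLC1A4, a neutral amino acid transporter, by 0.70, while SLC7A11, the partner chain of SLC3A2, was not called (0.14, edgeR adjusted p = 0.197) but was called higher without depleted replicate 2 (0.25, adjusted p = 4.27e-05). CTH, which makes cysteine from cystathionine, fell by 0.79, and MAT2A, which makes S-adenosylmethionine, fell by 2.03.

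Of 15 NADPH-producing enzymes and kinases tested, 12 fell and 1 rose (median log2 fold change −0.97). PGD, which forms NADPH in the pentose phosphate pathway, was one of those that fell. PGD stood at 411, 417 and 429 CPM in replete and at 36.8, 52.9 and 44.8 CPM in depleted libraries. Its log2 fold change with trimmed-mean scaling was −2.9998 (adjusted p = 2.62e-10 in edgeR). FDXR, a mitochondrial NADPH-dependent reductase of the ferredoxins, was the one that rose (0.55), and it consumes NADPH in its usual direction.

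NRF2 control genes were mostly called higher. Of 12 tested, 8 rose and 3 fell (median log2 fold change 1.52). NFE2L2, which encodes NRF2, stood at 69.4, 82.1 and 71.5 CPM in replete and at 306, 215 and 282 CPM in depleted libraries. All depleted libraries were above all replete ones, and the gene rose by 2.07 (edgeR adjusted p = 2.38e-08). KEAP1 fell by 0.33 (edgeR adjusted p = 0.0105) and was not called without depleted replicate 3 (0.0572) or replete replicate 3 (0.0501). MAFF, a small MAF protein that pairs with NRF2, rose from 19.1 to 629 ± 34.7 CPM (5.27), and SQSTM1, the autophagy receptor that binds KEAP1, rose by 1.79. BACH1 and CUL3 were also among the 8 that rose, by 1.88 and 0.52. The list holds genes that restrain NRF2, such as KEAP1, beside partners of NRF2, so its counts give no direction for NRF2 itself. DPP3, which binds KEAP1, fell by 1.65, and NFE2L1, a relative of NRF2, fell by 0.55. These are transcript levels, and the amount or activity of the NRF2 protein was not measured.

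**Figure D4:**
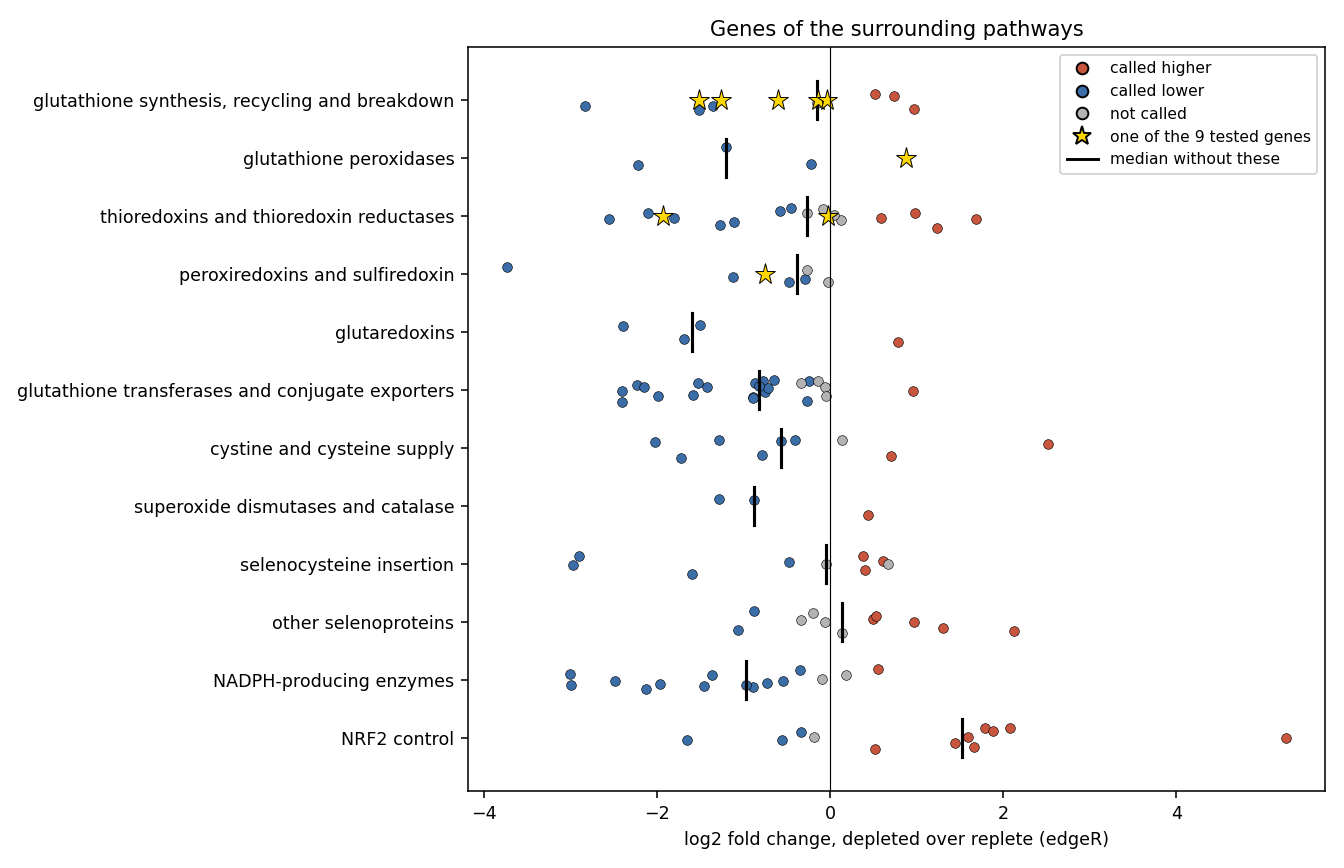
Log2 fold change (horizontal axis, depleted over replete, edgeR) of each tested gene in the 12 related lists (rows), red where called higher, blue where called lower and grey where not called, with stars for the 9 tested genes and black lines for the median of the other genes. The glutaredoxin, transferase and NADPH rows lie mostly left of 0, with medians of −1.60, −0.82 and −0.97, and the NRF2 control row lies mostly right of 0, with a median of 1.52.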

How the data were processed

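RNA of 6 H460 libraries was counted by the authors, who deposited raw counts per gene symbol, 1 library per file. Bowtie2, edgeR and hg19 appear in the submitters' processing notes, without roles or versions. The counting program, its annotation and its use of strand are not given in the sources used here. Counts of symbols on several entries (286 of 24462) were summed. The filter was edgeR's filterByExpr with at least 10 counts and 15 in total, and trimmed-mean factors were 0.917 to 0.929 (depleted) and 1.08 to 1.09 (replete). All 12739 genes left were tested two-sided by quasi-likelihood, with robust dispersions (edgeR 4.0.16, R 4.3.3). CPM uses library totals. Ratios used counts plus 0.5 and an exact permutation test over libraries. The edgeR fit, but not the ratio test, was tested on simulated data with the same dispersion for every gene and few genes changed. That simulation does not cover data in which most genes are called. Alternatives used DESeq2 1.42.0, limma 3.58.1, other scalings and filters, a replicate block and leaving out each library. Symbols, exon overlaps and pseudogene names came from GENCODE 29 on GRCh38. Gene positions are therefore not given, and the coordinates of the promoter stretches are those of RefSeq on GRCh38.p14. None of the 10 genes shares exons with another counted gene there.

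The members and lists were chosen with earlier results of these data known. All 10 genes are named. From each list, the 2 other genes with the smallest p in each direction, among called genes with a mean CPM of at least 10, could be named and most are, plus PRDX1, SLC7A11, TXNIP, NFE2L2 and KEAP1. CHAC2, TXN2, TXNRD2, TXNRD3, GPX3, PRDX3, PRDX5, GSTP1, EPT1, CAT, BACH1 and CUL3 were named after their values were seen. AHCY, MTR, CSAD, SECISBP2L, SELO, VIMP and SEPW1 are also named outside this rule.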

Additional observations from a re-analysis of the deposited data

How the results depend on the processing

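Of the 9 tested genes, GCLM, GSR, GPX4 and SRXN1 kept their direction and call under all 15 alternatives. The log2 fold change ran from −1.74 to −1.44 for GCLM, from −1.49 to −1.21 for GSR, from −0.98 to −0.69 for SRXN1 and from 0.65 to 0.93 for GPX4. GSS was called lower with library totals alone (−0.37) and upper quartile factors (−0.35), and over the fits that leave out 1 library it ran from −0.26, without depleted replicate 2 and called, to −0.071, without depleted replicate 1. CHAC1 and TXNRD1, never called, changed sign when 1 library was left out, over ranges of −0.22 to 0.13 and −0.17 to 0.13. Against a null of 1.5-fold, GCLC kept its value of −0.60 but was not called, and 3324 genes in all were called higher in place of 4987. The number of the 10 genes called lower ran from 4 to 6, and 1 was called higher throughout. The log2 ratio of GPX4 to GPX2, void because GPX2 has 2 counts, ran from −0.33 to 0.79 without 1 library, with −0.22 without depleted replicate 3. List counts of the other genes were made under 9 of the 15 alternatives (2 scalings, the replicate block and 6 left-out libraries), and 214 of 216 stayed within 1.5 times. With library totals alone, 1 in place of 3 genes of selenocysteine insertion were called higher and 5 in place of 2 other selenoproteins lower. SECISBP2 and SECISBP2L lost their call and SELO, VIMP and SEPW1 gained one with upper quartile factors too.

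Deviations of same-numbered libraries correlated at 0.179, 0.0323 and 0.0267. Those of differently numbered depleted and replete libraries correlated at −0.1275 to 0.0818. Whether the replicate number pairs the libraries was not tested. With the number as a replicate block, TXN had a log2 fold change of −2.04 and an adjusted p of 0.0512, so 4 of the 10 genes were called lower and 1 higher, and 4941 and 4999 genes in all were called higher and lower. GPX1, which is not among the 10, also lost its call (adjusted p = 0.0576). Depleted replicate 2 and replete replicate 3 correlated best with each other (0.0818), and the other 4 libraries with their own number. With 3 libraries a group, the ratio tests cannot give a p under 0.1, and 0.25 with the block. Depth limits GPX2, and CHAC1 has 98 to 151 counts a library.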

Other observations

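Genes for neighbouring redox enzymes were divided too. SOD1, the cytosolic superoxide dismutase, fell by 0.88 on the log2 scale, from a mean of 684 CPM to 318 ± 14.5 CPM (SD, n = 3, adjusted p = 3.84e-08 in edgeR), while SOD2, the mitochondrial one, rose from 147 to 170 ± 5.72 CPM (0.44, edgeR adjusted p = 9.55e-05). CAT, which encodes catalase, had 1 count over all 6 libraries.

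GPX4 and TXNRD1 are selenoproteins, as are GPX1 and GPX2, and carry the amino acid selenocysteine. Of 9 tested genes around its insertion, 3 rose and 4 fell. Over all genes tested, 39.1% were called higher and 39.4% lower, so these counts say nothing particular about the 9 genes. SEPHS1, a relative of the selenophosphate synthetase, stood at 67.8 CPM with glutamine and 19.1 ± 2.50 CPM without it, a fall (log2 value −1.59), and TRNAU1AP, which associates with the selenocysteine tRNA, rose by 0.61. SECISBP2, which binds the selenocysteine insertion element of the mRNA, rose by 0.40 but was not called with library totals alone (0.17, adjusted p = 0.121). SELENBP1, which fell by 2.98, binds selenium and is not itself an insertion factor. Of 11 other selenoproteins tested, 5 rose and 2 fell, beside the same shares over all genes tested. SELT, of the endoplasmic reticulum, rose from 94.9 to 201 ± 26.3 CPM (1.31) and SELK rose by 0.96, while SEPN1 and MSRB1, a methionine sulfoxide reductase, fell by 1.07 and 0.88. EPT1, a selenoprotein enzyme of phospholipid synthesis, rose by 2.12.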
